A study of Mus musculus with 4 samples.

Results

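The 5 genes that encode the subunits of the IL-12 family of cytokines (Il12a, Il12b, Il23a, Il27 and Ebi3) were followed in dendritic cells and their neighbours from injected mouse melanomas. They were matched on gene symbol, each to 1 entry among the 32285 genes of the deposited matrices, and all 5 had counts in all 4 libraries. The libraries are droplet 3′ single-cell RNA sequencing of CD11c+ MHC-II+ cells sorted from B16-F10 tumors (a transplantable melanoma line) that grew under the skin of C57BL/6 mice from 500000 cells and were injected with an adenovirus on day 12. Ad-MEM40, which the labels also call ISF35 (an engineered membrane-bound CD40 ligand), Ad-mIFNB, a vector for murine interferon beta, and Ad-COMBO, both of those viruses together, were set against Ad-Null, an adenovirus without either. Every tumor, controls included, therefore received adenovirus. There was 1 library per treatment, pooled from 3 tumors, so no difference below has a replicate check and no p-value is given. Intervals are 95% intervals for counting error only.

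IL-12 family cytokines are pairs of an alpha chain and a beta chain, and the chains are shared between cytokines. Il12a and Il12b together make IL-12, the inducer of Th1 cells and of interferon gamma in T and NK cells. Il23a with the same Il12b makes IL-23, which maintains Th17 cells. Il27 with Ebi3 makes IL-27, which can both promote Th1 priming and restrain inflammation, and Il12a with Ebi3 makes IL-35, described from regulatory lymphocytes. Antigen-presenting cells are the main source of IL-12, IL-23 and IL-27, and CD40 ligation and interferons are known inducers of several of the chains.

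The genes are not linked. In GENCODE M21 (GRCm38), Il12a lies on the plus strand at chr3:68690644-68698547, Il12b on the plus strand at chr11:44400063-44414033 and Ebi3 on the plus strand at chr17:55952640-55957022. Il23a lies on the minus strand at chr10:128296139-128298752 and Il27 on the minus strand at chr7:126589010-126594941. All are protein-coding. Il27 overlaps the opposite-strand gene Apobr by 103 bases, and Ebi3 overlaps the antisense transcript Gm16712 by 2252 bases. The sources used here do not say whether counting used strand, so reads from these overlaps cannot be told apart.

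Il12b and Ebi3 are shown by the 250 bases before their RefSeq start on GRCm38.p6, since both were among the subunits 1.5-fold higher in Ad-COMBO than in Ad-Null over all cells. The table held promoters for 3 of the 5 genes (Il12a, Il12b and Ebi3). Il23a and Il27 are named only. Il12b is chr11:44399813-44400062 and Ebi3 is chr17:55952373-55952622, both plus strand and 5′ to 3′, with capitals marking a match to the NF-kB consensus.
Il12b: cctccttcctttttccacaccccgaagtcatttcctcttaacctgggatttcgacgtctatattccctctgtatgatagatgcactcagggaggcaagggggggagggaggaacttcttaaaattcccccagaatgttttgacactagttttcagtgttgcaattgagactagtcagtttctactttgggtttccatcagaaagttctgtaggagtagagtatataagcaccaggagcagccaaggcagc
Ebi3: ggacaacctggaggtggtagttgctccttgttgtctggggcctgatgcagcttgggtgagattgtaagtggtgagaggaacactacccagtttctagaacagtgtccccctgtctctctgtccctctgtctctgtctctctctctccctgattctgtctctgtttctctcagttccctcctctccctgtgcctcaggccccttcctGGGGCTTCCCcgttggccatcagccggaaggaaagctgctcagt
The match in Ebi3 begins 44 bases before the start, and 3.90% of 32841 mouse promoter windows of this length held the consensus on either strand. The interferon response element core (GAAA, any 2 bases, GAAA), looked for on both strands, was in 2.98% of the windows and in none of those of Il12a, Il12b and Ebi3, which says only that these letters are not there.

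Barcodes with 500 or more genes and no more than 10% of UMIs from mitochondrial genes were kept, namely 15656 Ad-MEM40, 1810 Ad-mIFNB, 671 Ad-COMBO and 8745 Ad-Null cells, or 26882 in all. Their median depth was 9483 UMIs in Ad-MEM40, 13615.5 in Ad-mIFNB, 11434 in Ad-COMBO and 15277 in Ad-Null, so the Ad-MEM40 cells were the shallowest and Ad-COMBO held the fewest cells. The libraries shared 63 kept barcode sequences. Cells were classed by their own markers: at least 40% of a class's listed markers at 2 or more UMIs, and at least 10 points more than the next class. The mature DC gate took 943 Ad-MEM40 cells, 213 Ad-mIFNB cells, 127 Ad-COMBO cells and 519 Ad-Null cells, which were 6.02%, 11.8%, 18.9% and 5.93% of those libraries. Their median was 9 of 12 mature DC markers (Ccr7, Fscn1, Ccl22 and others) and at most 1 marker of any other class. The gate has an edge: 170 cells had just the markers needed and 208 were 1 marker short. Of the sort markers, the MHC-II gene H2-Ab1 had a UMI in 99.1% of kept cells, and the CD11c gene Itgax in 48.3% of kept cells and 32.0% of the mature DC gate. In clusters made without the gates, 1 cluster held between 79.4% (Ad-MEM40) and 89.8% (Ad-COMBO) of a library's mature DC-gated cells. Cells under every gate (8436) and near 2 classes (2378) were left without a name.

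The 5 genes differed in how their UMIs were spread over the classes. Pooled over libraries, Il12b, Il23a, Il27 and Ebi3 each had their highest level in the mature DC gate, and Il12a in pDC. Most Il12b UMIs were in the mature DC gate, and plasmacytoid DC (pDC) held the largest part of those of Il12a. Il27 UMIs were shared by mature DC and macrophages, and Ebi3 was found in every myeloid class. Il23a was sparse everywhere. As a measure of free RNA, the same values are given for the 360 melanoma-gated cells, a class not known for these genes, which were very deep (median 54422 UMIs). These cells had all 8 melanoma markers at the median, but also 3 of 12 macrophage and 2 of 12 mature DC markers, the leukocyte gene Ptprc had a UMI in 46.9% of them, and 20.5% of those of Ad-MEM40 were called doublets, so they are no clean blank. Levels are CPM, the gene's UMIs per 1000000 UMIs summed over the cells, and are compared only within a gene.

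Il12b had 55.8% of its 30427 UMIs in the 1802 mature DC-gated cells, of which 43.7% had a UMI. Its level was 713 CPM (702 to 724) there, against 31.0 CPM in cDC1, 25.9 CPM in macrophages, 13.7 CPM in pDC, 12.8 CPM in cDC2 or DC3, 3.88 CPM in monocytes and 1.17 CPM (0.748 to 1.74) in melanoma cells. With every cell thinned to 3000 UMIs, 32.5% of mature DC, 4.95% of cDC1, 2.97% of macrophages, 1.92% of monocytes, 1.56% of cDC2 or DC3, 1.44% of pDC and 0.282% of melanoma cells had an Il12b UMI. Unthinned, the shares in cDC2 or DC3 (4.51%), pDC (3.86%) and monocytes (3.29%) were no higher than the melanoma share of 5.00%, which comes from far deeper cells. A further 20.0% of Il12b UMIs fell in cells near 2 classes.

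Il12a was counted only 202 times in all, and 99 of those UMIs (49.0%) were in pDC, the type I interferon producers. A UMI was present in 76 of 647 pDC, or 11.7% (9.37 to 14.5), at a median of 8885 UMIs per cell. In the mature DC gate it was 21 of 1802 cells, 1.17% (0.723 to 1.78), and in cDC1 it was 1 of 3413 cells. None of the 360 melanoma cells had one, which allows up to 0.833% of cells with a UMI (3 cells of 360). The pDC share thus stood apart from every other gate with at least 50 cells, also after thinning (4.82% of pDC against 0.470% of mature DC). The T or NK cell gate held 16 cells, none with an Il12a UMI, and its interval reached 20.6%.

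Il27 had 31.9% of its 2342 UMIs in macrophages and 26.1% in mature DC, although macrophages were far more numerous. Its level was 25.7 CPM (23.7 to 27.8) in mature DC, 7.27 CPM in macrophages, 6.499 CPM in monocytes, 1.98 CPM in cDC1 and 0.340 CPM in melanoma cells. Macrophages and monocytes did not differ beyond their intervals (6.75 to 7.81 and 4.92 to 8.42 CPM). Ebi3, whose protein is also the beta chain of IL-35, had 112.9 CPM in mature DC, 30.9 CPM in macrophages, 29.6 CPM in cDC2 or DC3, 24.7 CPM in pDC, 21.4 CPM in cDC1 and 2.19 CPM in melanoma cells. Macrophages and cDC2 or DC3 had overlapping intervals for Ebi3. A UMI was present in 11.2% of mature DC and 1.39% of melanoma cells for Il27 (thinned 3.82% and 0.282%), and in 45.4% and 10.3% for Ebi3 (thinned 21.4% and 1.13%).

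Il23a had 1124 UMIs, 24.9% of them in mature DC and 24.0% in macrophages. Its level was 11.8 CPM (10.4 to 13.2) in mature DC, 2.96 CPM in monocytes, 2.63 CPM (2.32 to 2.96) in macrophages and 1.36 CPM (0.905 to 1.97) in melanoma cells. A UMI was present in 3.66% of mature DC and 3.78% of macrophages, against 6.67% of the deeper melanoma cells. Thinned to 3000 UMIs the shares were 1.47%, 0.857% and 0.282%, and the mature DC level rests on a few cells of Ad-MEM40.

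**Figure D1:**
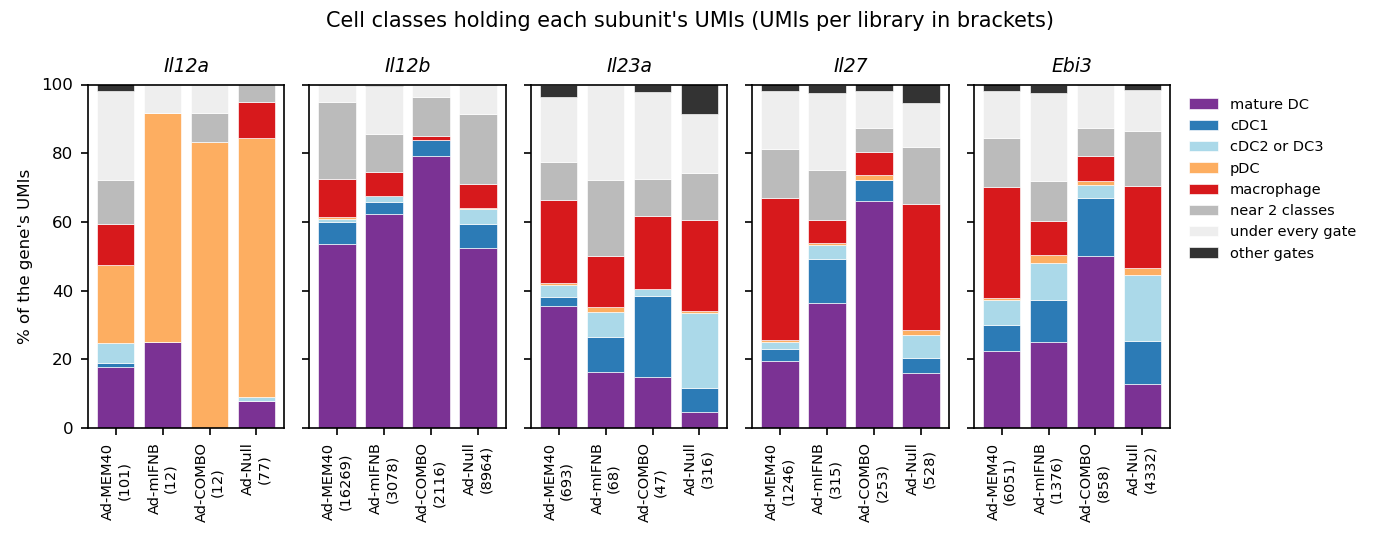
Percent of each gene's UMIs (vertical axis) that fell in each cell class, as 1 stacked bar per library in the order Ad-MEM40, Ad-mIFNB, Ad-COMBO and Ad-Null, with the UMIs per library in brackets. Il12b is mostly mature DC in every library, Il12a is mostly pDC outside Ad-MEM40, and the mature DC part of Il27 and Ebi3 is largest in Ad-COMBO.

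Over all kept cells, Il12b, Il27 and Ebi3 were higher in the libraries that had received interferon beta, and most in Ad-COMBO. Il12b was 89.5 CPM in Ad-MEM40, 108 CPM in Ad-mIFNB and 217 CPM in Ad-COMBO, against 55.7 CPM in Ad-Null. Il27 was 6.85 CPM in Ad-MEM40, 11.0 CPM in Ad-mIFNB and 26.0 CPM in Ad-COMBO, against 3.28 CPM in Ad-Null. Ebi3 was 33.3 CPM in Ad-MEM40, 48.2 CPM in Ad-mIFNB and 88.0 CPM in Ad-COMBO, against 26.9 CPM in Ad-Null. For these 3 genes the libraries had the same order and no 2 intervals overlapped.

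Il23a and Il12a had far fewer UMIs. Il23a was 3.81 CPM in Ad-MEM40, 2.38 CPM in Ad-mIFNB and 4.82 CPM in Ad-COMBO, against 1.96 CPM in Ad-Null. Its intervals overlapped between Ad-COMBO and Ad-MEM40 and between Ad-mIFNB and Ad-Null. Il12a was 0.555 CPM in Ad-MEM40 (101 UMIs), 0.420 CPM in Ad-mIFNB (12 UMIs) and 1.23 CPM in Ad-COMBO (12 UMIs), against 0.479 CPM in Ad-Null (77 UMIs). The Ad-COMBO interval for Il12a, 0.636 to 2.15 CPM, lay above that of Ad-Null, 0.378 to 0.598 CPM, but rests on 10 cells, 8 of them among 25 pDC.

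A gene was called higher or lower at 1.5-fold, on log2 ratios with 5 CPM added to both sides, where both libraries together had at least 20 UMIs. This addition shrinks the ratios of low genes such as Il12a and Il23a. Against Ad-Null, 1 of 5 subunits was higher in Ad-MEM40 (Il12b, log2 ratio 0.64), where 0.776% of all genes tested were. In Ad-mIFNB 3 of 5 were higher, against 2.65% of all genes, with log2 ratios of 0.89 for Il12b, 0.95 for Il27 and 0.74 for Ebi3. In Ad-COMBO 3 of 5 were higher, against 5.98% of all genes, with log2 ratios of 1.87 for Il12b, 1.90 for Il27 and 1.54 for Ebi3. No subunit was lower in any of these comparisons.

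Ad-COMBO was also above each single virus. Over Ad-mIFNB, 3 of 5 subunits were higher (2.66% of all genes), and over Ad-MEM40, 3 of 5 (5.45% of all genes). In both comparisons they were Il12b, Il27 and Ebi3, with log2 ratios of 0.98, 0.95 and 0.81 over Ad-mIFNB and of 1.23, 1.38 and 1.28 over Ad-MEM40. These comparisons share libraries and are not independent of each other. The median log2 ratio of the 5 subunits was 1.54 for Ad-COMBO over Ad-Null, against -0.01 over all genes tested.

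The share of mature DC was also higher in Ad-COMBO (18.9%) and Ad-mIFNB (11.8%) than in Ad-Null (5.93%, 5.45 to 6.45), while that of Ad-MEM40 (6.02%, 5.66 to 6.41) overlapped with Ad-Null. Without the mature DC-gated cells, the log2 ratios of Ad-COMBO over Ad-Null were 0.82 for Il12b, 0.97 for Il27 and 0.94 for Ebi3, so all 3 stayed past 1.5-fold. Without them, none of the 5 subunits was 1.5-fold higher in Ad-COMBO than in Ad-mIFNB, with log2 ratios of 0.22 for Il12b, 0.28 for Il27 and 0.34 for Ebi3. Over Ad-MEM40 only Ebi3 was, at 0.83.

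**Figure D2:**
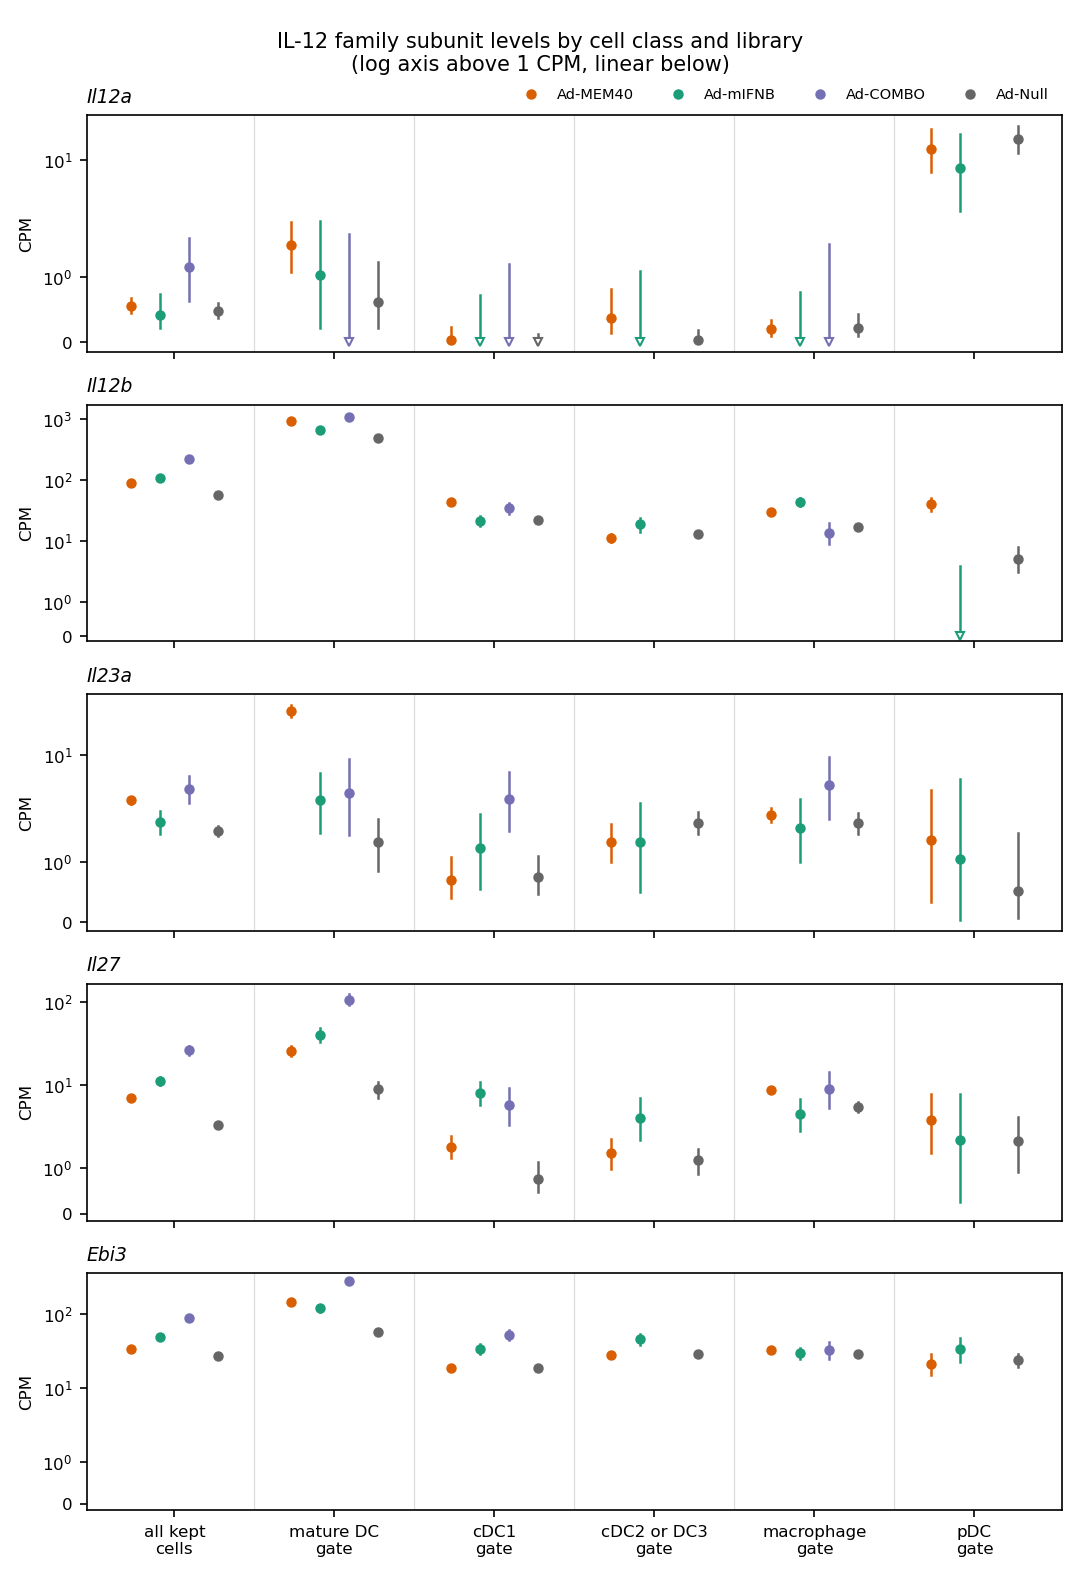
Level of each gene in CPM (vertical axis, logarithmic above 1 CPM and linear below) in all kept cells and in 5 gated classes, for Ad-MEM40, Ad-mIFNB, Ad-COMBO and Ad-Null. Points are libraries with at least 50 cells of the class, bars are exact Poisson 95% intervals and open triangles are 0 UMIs. Il12b, Il27 and Ebi3 are highest in the mature DC gate, and Il12a stands out in pDC.

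Within the mature DC gate, the share of these cells no longer enters, and 4 of 5 subunits passed 1.5-fold in Ad-MEM40 relative to Ad-Null, against 1.61% of all genes tested. These were Il12b (log2 ratio 0.91), Il23a (2.23), Il27 (1.15) and Ebi3 (1.24). In Ad-mIFNB 2 of 4 subunits with enough UMIs were higher, against 5.27% of all genes, and they were Il27 (1.70) and Ebi3 (0.99). In Ad-COMBO 3 of 4 were higher, against 10.8% of all genes, and they were Il12b (1.13), Il27 (3.01) and Ebi3 (2.15). The IL-27 pair was thus above 1.5-fold in all 3 treated libraries.

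Il12b in the mature DC gate was 907 CPM (888 to 926) in Ad-MEM40, 660 CPM (631 to 690) in Ad-mIFNB and 1061 CPM (1011 to 1113) in Ad-COMBO, against 481 CPM (468 to 495) in Ad-Null. No 2 libraries overlapped in these intervals, but the order of Ad-COMBO and Ad-MEM40 rested on a few cells. Without the 3 cells with most Il12b UMIs in each library it was 807 CPM (789 to 825) in Ad-MEM40, 489.9 CPM in Ad-mIFNB and 739.6 CPM (697 to 784) in Ad-COMBO, against 418 CPM in Ad-Null. Without doublet calls Ad-COMBO (1021 to 1127 CPM) and Ad-MEM40 (1026 to 1074 CPM) overlapped. The share of mature DC with an Il12b UMI hardly varied: 45.4% in Ad-MEM40, 44.1% in Ad-mIFNB and 40.9% in Ad-COMBO, against 41.0% in Ad-Null, with overlapping intervals. Thinned to 3000 UMIs, an Il12b UMI was left in 35.3% (32.1 to 38.6) of mature DC in Ad-MEM40, in 30.7% in Ad-mIFNB and in 35.3% in Ad-COMBO, against 27.6% of those of Ad-Null (23.8 to 31.7). After thinning the Ad-MEM40 interval lay above that of Ad-Null, and the other 2 overlapped with it.

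Per cell, the mean was 9.22 Il12b UMIs in Ad-MEM40, 8.99 in Ad-mIFNB and 13.2 in Ad-COMBO, against 9.03 in Ad-Null. The mature DC of Ad-MEM40 had a median of 8073 UMIs of all genes, those of Ad-mIFNB 11819 and those of Ad-COMBO 10630, against 14956 in Ad-Null. Ad-MEM40 thus had about as many Il12b UMIs per mature DC as Ad-Null among far fewer UMIs in all, and depth moved with this result. Thinned to equal depth, the log2 ratio over Ad-Null was 0.75 for Ad-MEM40 and 0.78 for Ad-COMBO, and 0.18 for Ad-mIFNB. Il12b was concentrated: at least 10 UMIs were found in 18.6% of Ad-MEM40, 17.4% of Ad-mIFNB and 19.7% of Ad-COMBO mature DC, against 17.0% in Ad-Null.

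Il27 in the mature DC gate was 25.5 CPM (22.4 to 28.9) in Ad-MEM40, 39.7 CPM (32.7 to 47.6) in Ad-mIFNB and 106 CPM (90.3 to 123) in Ad-COMBO, against 8.72 CPM (6.97 to 10.8) in Ad-Null. The number of cells with Il27 and the UMIs in them varied separately. A UMI was present in 9.86% of Ad-MEM40, 21.1% of Ad-mIFNB and 18.9% of Ad-COMBO mature DC, against 7.71% of Ad-Null. Thinned, the shares were 2.62% in Ad-MEM40 and 10.1% in Ad-mIFNB, and 8.40% in Ad-COMBO, against 2.37% in Ad-Null. Both libraries with interferon beta were above Ad-MEM40 and Ad-Null in the share of Il27-positive cells, with no overlap of intervals, and overlapped with each other.

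The Ad-COMBO level of Il27 rested in part on single cells. Of its 167 UMIs, 61 were in 1 cell and 101 (60.5%) in 3 cells. Without those 3 cells it was 43.1 CPM (33.3 to 54.8), and the same removal left 16.0 CPM in Ad-MEM40, 31.6 CPM in Ad-mIFNB and 5.80 CPM in Ad-Null. The log2 ratio of Ad-COMBO was then 2.15 over Ad-Null, still past 1.5-fold, and 0.40 over Ad-mIFNB, no longer past it.

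Ebi3 in the mature DC gate was 142 CPM (134 to 149) in Ad-MEM40, 118 CPM (106 to 131) in Ad-mIFNB and 272 CPM (246 to 298) in Ad-COMBO, against 57.3 CPM (52.6 to 62.2) in Ad-Null. All 3 treated libraries lay above Ad-Null with no overlap. The share of mature DC with an Ebi3 UMI was 43.6% in Ad-MEM40, 47.4% in Ad-mIFNB and 57.5% in Ad-COMBO, against 45.1% in Ad-Null. Thinned, it was 23.1% in Ad-MEM40, 21.6% in Ad-mIFNB and 37.0% in Ad-COMBO, against 14.8% in Ad-Null. Before thinning the 3 treated libraries overlapped with Ad-Null. After it Ad-MEM40 (20.4 to 26.1) and Ad-COMBO (28.3 to 46.3) lay above Ad-Null (11.8 to 18.2), and Ad-mIFNB overlapped with it.

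Il23a in the mature DC gate was 25.8 CPM (22.7 to 29.2) in Ad-MEM40, 3.79 CPM (1.89 to 6.79) in Ad-mIFNB and 4.43 CPM (1.78 to 9.13) in Ad-COMBO, against 1.54 CPM (0.862 to 2.54) in Ad-Null. Ad-MEM40 stood alone, and the other 3 libraries did not exceed 15 UMIs each. The Ad-MEM40 value came from few cells: 69, 65 and 39 of its 247 UMIs were in 3 cells, which is 70.0%, and only 36 of 943 cells had any. The 69-UMI cell also had 473 Il12b UMIs, the most of any cell, and was called a doublet. Without the 3 cells Il23a was 7.78 CPM (6.11 to 9.77) in Ad-MEM40, and 1.24 CPM in Ad-Null after the same removal. The log2 ratio was then 1.04.

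Il12a had 18 UMIs in the mature DC of Ad-MEM40, 3 in those of Ad-mIFNB and 0 in those of Ad-COMBO, against 6 in those of Ad-Null. With 0 of 127 cells, Ad-COMBO allows up to 2.36% of cells with a UMI (3 cells of 127). These counts give overlapping intervals, 1.11 to 2.97 CPM in Ad-MEM40 and 0.226 to 1.34 CPM in Ad-Null. Without doublet calls the intervals were apart, at 2.45 CPM (1.43 to 3.92) in Ad-MEM40 and 0.583 CPM (0.189 to 1.36) in Ad-Null. These rest on 17 and 5 UMIs, and 5 of those of Ad-MEM40 were in 1 cell. Without the 3 cells with most Il12a UMIs, doublet calls kept, 11 UMIs were left in Ad-MEM40 and 1 in Ad-Null. The levels were then 1.15 CPM (0.575 to 2.06) and 0.103 CPM (up to 0.574), too few UMIs to rank the libraries firmly.

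Against the single viruses, Ad-COMBO mature DC had 3 of 3 subunits with enough UMIs higher than Ad-mIFNB, where 7.65% of all genes were. The log2 ratios were 0.68 for Il12b, 1.31 for Il27 and 1.17 for Ebi3. Over Ad-MEM40, 2 of 4 were higher, against 8.93% of all genes, with 1.86 for Il27 and 0.91 for Ebi3. There 1 of 4 was lower, against 12.2% of all genes, and it was Il23a at -1.71. Il12b was 0.22, within 1.5-fold. Without the 3 cells with most UMIs of each gene, Ebi3 over Ad-MEM40 was 0.45, so that Il27 (1.19) was the only subunit higher, and Il23a was -0.76.

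**Figure D3:**
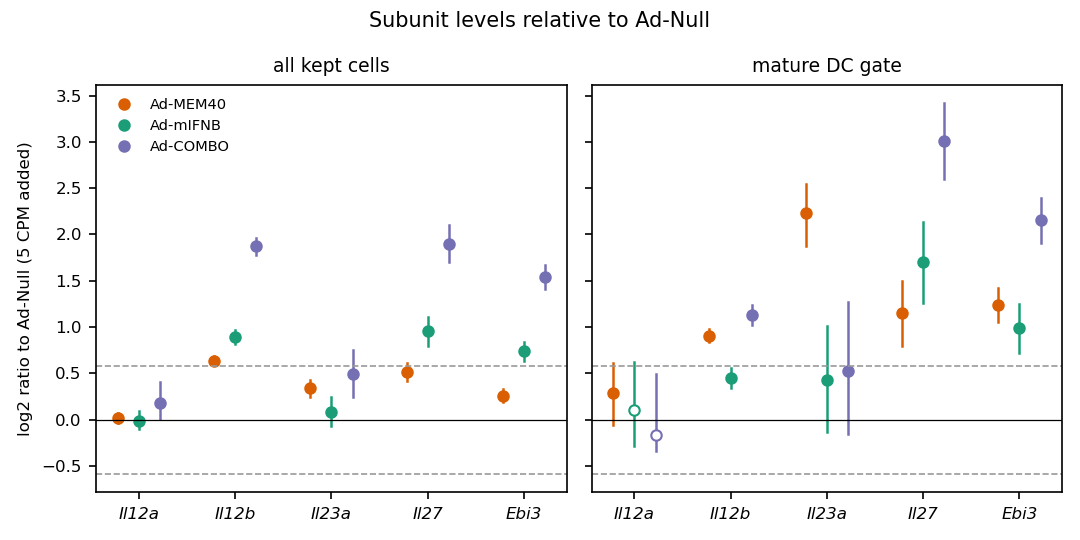
Log2 ratio of each gene to Ad-Null (vertical axis, 5 CPM added to both sides) in all kept cells (left) and in the mature DC gate (right) of the 3 treated libraries. Bars combine the Poisson limits of both libraries, dashed lines mark 1.5-fold and open points have under 20 UMIs. Il27 in Ad-COMBO reaches 3.01 and Il23a in Ad-MEM40 2.23 in the mature DC gate.

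**Figure D4:**
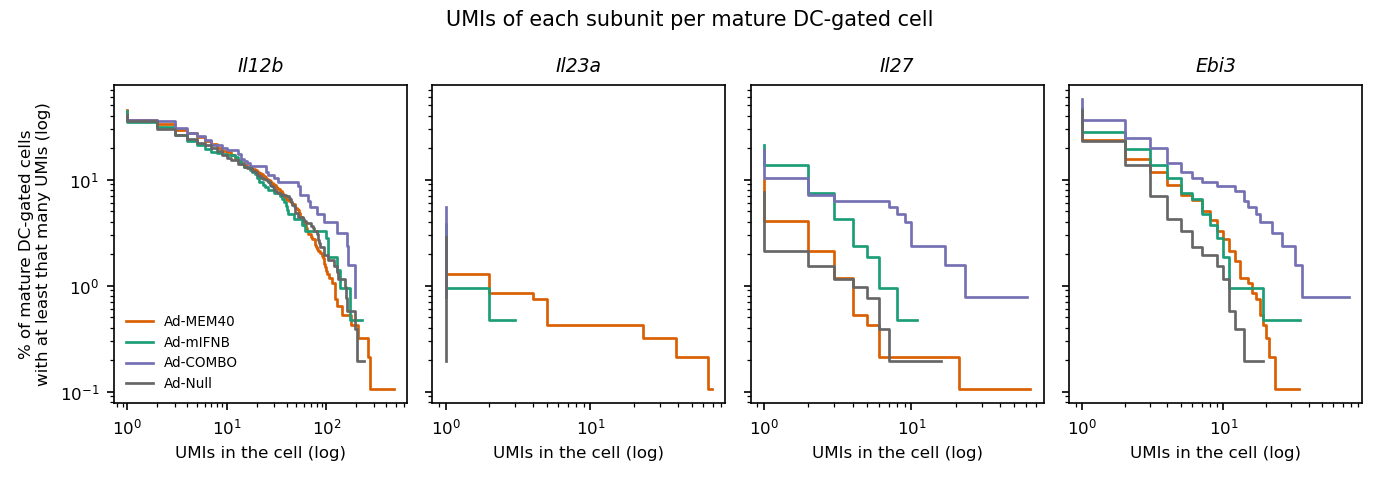
Percent of mature DC-gated cells (vertical axis, logarithmic) with at least a given number of UMIs of the gene (horizontal axis, logarithmic) for Ad-MEM40, Ad-mIFNB, Ad-COMBO and Ad-Null. The Il12b curves of Ad-MEM40, Ad-mIFNB and Ad-Null lie close together, and the long Il23a tail of Ad-MEM40 is 4 cells with 10 or more UMIs.

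Outside the mature DC gate the differences varied by class. In cDC1, the cross-presenting DC, Il12b was 43.2 CPM in Ad-MEM40, 21.1 CPM in Ad-mIFNB and 34.7 CPM in Ad-COMBO, against 22.1 CPM in Ad-Null. Here Ad-MEM40 passed 1.5-fold over Ad-Null (log2 ratio 0.83) and Ad-mIFNB overlapped with Ad-Null. Of the Ad-MEM40 cDC1 UMIs of Il12b, 29.5% were in cells called doublets, and without them the level was 35.8 CPM, against 22.8 CPM in Ad-Null. The log2 ratio was then 0.55 and no longer past 1.5-fold.

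The IL-27 pair in cDC1 was higher in the 2 libraries with the interferon beta virus. Il27 was 1.78 CPM in Ad-MEM40, 7.83 CPM in Ad-mIFNB and 5.66 CPM in Ad-COMBO, against 0.761 CPM in Ad-Null. Ebi3 was 18.6 CPM in Ad-MEM40, 33.5 CPM in Ad-mIFNB and 51.6 CPM in Ad-COMBO, against 18.7 CPM in Ad-Null. For both genes Ad-mIFNB and Ad-COMBO were called higher than Ad-Null, with log2 ratios of 1.16 and 0.89 for Il27 and of 0.70 and 1.26 for Ebi3. The Il27 values rest on 40 and 16 UMIs.

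In macrophages Il12b was 29.96 CPM in Ad-MEM40, 43.7 CPM in Ad-mIFNB and 13.6 CPM in Ad-COMBO, against 17.3 CPM in Ad-Null. The order differed from that in mature DC, and Ad-COMBO was the lowest, with 26 UMIs of which 23 were in 1 cell and an interval that overlapped with Ad-Null. Doublet calls held 46.0% of the Ad-MEM40 and 37.4% of the Ad-Null macrophage UMIs of Il12b, and without them the levels were 22.0 CPM and 13.0 CPM, a log2 ratio of 0.58, just short of 1.5-fold.

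Most of this Il12b lay in 1 cluster, of those made without the 5 subunits. Cluster 11, with leading genes of macrophages (Cbr2, Ccl8, Folr2) and of mature DC (Ccl22, Ccr7, Fscn1 and Il12b itself), held 22.2% of macrophage-gated cells in Ad-MEM40 and 12.7% in Ad-mIFNB, against 16.0% of those in Ad-Null. Without it, a choice made after the values were known, Il12b in macrophages was 6.72 CPM in Ad-MEM40, 6.42 CPM in Ad-mIFNB and 1.73 CPM (3 UMIs) in Ad-COMBO, against 3.59 CPM in Ad-Null. No ratio to Ad-Null then passed 1.5-fold, with log2 ratios of 0.45 for Ad-MEM40, 0.41 for Ad-mIFNB and -0.35 for Ad-COMBO.

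Il27 in macrophages was 8.55 CPM in Ad-MEM40, 4.43 CPM in Ad-mIFNB and 8.92 CPM in Ad-COMBO, against 5.39 CPM in Ad-Null, and no ratio passed 1.5-fold. Ebi3 in macrophages was between 28.8 and 32.2 CPM in all 4 libraries.

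In pDC Il12a was 12.4 CPM in Ad-MEM40 (23 UMIs) and 8.53 CPM in Ad-mIFNB (8 UMIs), against 15.1 CPM in Ad-Null (58 UMIs), with overlapping intervals. Ad-COMBO had 25 pDC, too few for a comparison, with 10 Il12a UMIs in 8 of them. Among pDC with an Il12a UMI, the level was low in every library, at 1 to 3 UMIs per cell. Il12b in pDC was 39.8 CPM in Ad-MEM40, where 45 of 74 UMIs were in 1 cell, and 0 of 67 cells had it in Ad-mIFNB, against 5.20 CPM in Ad-Null.

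A cytokine of this family needs both chains, so the chains were also looked for in the same cell. The IL-12 chains were seldom found together: of 154 cells with Il12a and 2476 with Il12b, 24 had both. Il12b was present in 15.6% (10.2 to 22.3) of the Il12a-positive cells and in 9.17% of the others, at median depths of 9422.5 and 11146.5 UMIs. After thinning it was 5.45% (3 of 55 cells) and 5.51%. In pDC 3 of 76 Il12a-positive cells had Il12b, and in the mature DC gate 9 of 21 did.

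By library, both IL-12 chains were seen in 15 cells of Ad-MEM40, 4 of Ad-mIFNB and 2 of Ad-COMBO, against 3 of Ad-Null. Of the Il12a-positive cells these were 15 of 79 in Ad-MEM40 (interval 11.0% to 29.4%), 4 of 10 in Ad-mIFNB (12.2% to 73.8%) and 2 of 10 in Ad-COMBO (2.52% to 55.6%), against 3 of 55 in Ad-Null (1.14% to 15.1%). All of these intervals overlap. With 1 or 2 Il12a UMIs in most positive cells, a cell without a UMI may still express the gene.

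The IL-27 chains went together. In the mature DC gate 74.8% (68.2 to 80.6) of the 202 Il27-positive cells had Ebi3, against 41.8% (39.3 to 44.2) of the Il27-negative cells. The positive cells were deeper, with a median of 14402 UMIs against 9488. Thinned to 3000 UMIs, the median depth before thinning was alike (10317 and 10419 UMIs), and the shares were 56.9% (44.0 to 69.2) of 65 positive cells and 20.0% (18.1 to 22.0) of the others. Equal depth therefore left the difference in place.

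The pairing of Il27 with Ebi3 was present in each library. After thinning, Ebi3 was found in 52.2% of Il27-positive and 22.3% of Il27-negative mature DC in Ad-MEM40. In Ad-mIFNB the shares were 60.0% and 17.3%, and in Ad-COMBO 80.0% and 33.0%, against 41.7% and 14.1% in Ad-Null. In Ad-MEM40 and Ad-mIFNB, and in Ad-COMBO, the intervals of positive and negative cells did not overlap. In Ad-Null, with 12 positive cells, they did. Both the positive and the negative cells of Ad-COMBO had the highest shares.

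The IL-23 chains showed no such difference. Il12b was present in 31 of 66 Il23a-positive mature DC, 47.0% (34.6 to 59.7), and in 43.6% (41.2 to 45.9) of the Il23a-negative ones. Thinned, it was 9 of 25 cells, 36.0% (18.0 to 57.5), against 32.4% (30.2 to 34.7). These shares count a cell with any UMI as positive. The 3 Ad-MEM40 mature DC with most Il23a (69, 65 and 39 UMIs) had 473, 8 and 262 Il12b UMIs, the first a doublet call. The mature DC with most Il23a in Ad-mIFNB (3 UMIs) had 0. For the IL-35 chains, Ebi3 was present in 30.5% (23.4 to 38.4) of Il12a-positive cells and in 26.8% of the others, and after thinning in 16.4% (7.77 to 28.8) and 8.60%.

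Il12b and Il27, which belong to different cytokines, were compared after the values above were known. Of Il27-positive mature DC, 47.3% in Ad-MEM40, 75.6% in Ad-mIFNB and 66.7% in Ad-COMBO had Il12b, against 65.0% in Ad-Null. The Il27-negative cells had it in 45.2%, 35.7% and 35.0%, against 39.0% in Ad-Null. The intervals of positive and negative cells were apart in Ad-mIFNB and Ad-Null, touched in Ad-COMBO (44.7 to 84.4 and 25.8 to 45.0) and overlapped in Ad-MEM40 (36.9 to 57.9 and 41.8 to 48.6). After thinning the shares in Ad-MEM40 were 30.4% and 35.4%, and those in Ad-mIFNB 60.0% and 27.4%. Counting all 5 genes, 31.4% of the 1802 mature DC had none, 39.7% had 1, 21.9% had 2, 6.44% had 3 and 0.610% had 4.

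**Figure D5:**
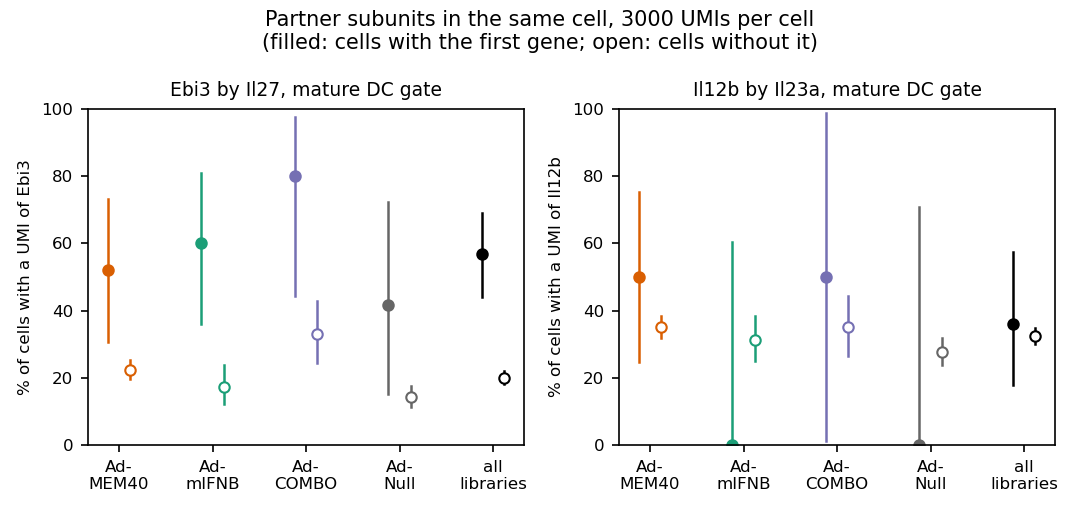
Percent of mature DC-gated cells with a UMI of Ebi3 by Il27 status (left) and of Il12b by Il23a status (right), each cell thinned to 3000 UMIs, for Ad-MEM40, Ad-mIFNB, Ad-COMBO, Ad-Null and all libraries. Filled points are cells with the first gene, open points cells without it, and bars exact 95% intervals. The filled points lie above the open ones on the left in every library, and the pooled ones overlap on the right (36.0% and 32.4%).

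A list of 35 genes held the receptor chains, kinases and STATs of this family, transcription factors of its subunit genes and brakes. It also held upstream receptors (Cd40, interferon and Toll-like receptors) with Myd88, and genes of the interferon gamma axis. Of the 35, 1 was 1.5-fold higher over all kept cells in Ad-MEM40, 5 in Ad-mIFNB and 10 in Ad-COMBO than in Ad-Null. None was lower. Over all genes tested, 0.776% were higher in Ad-MEM40, 2.65% in Ad-mIFNB and 5.98% in Ad-COMBO. The median log2 ratio of the list was 0.05 in Ad-MEM40, 0.13 in Ad-mIFNB and 0.37 in Ad-COMBO, against 0.02, -0.02 and -0.01 over all genes tested. In Ad-COMBO they included Il12rb2, the signalling chain of the IL-12 receptor, at 21.03 CPM against 6.08 CPM in Ad-Null. Stat4, which that receptor activates, was 133 CPM in Ad-COMBO against 45.7 CPM in Ad-Null, and Irf1, an inducer of subunit genes, 389.8 CPM against 197.8 CPM. Stat4 and Il12rb2 were also high in mature DC, whose share moved with these values.

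Within the mature DC gate, 2 of 33 listed genes with enough UMIs passed 1.5-fold upwards in Ad-MEM40 relative to Ad-Null, 5 of 32 were higher and 1 lower in Ad-mIFNB, and 8 of 32 were higher and 2 lower in Ad-COMBO. Of all genes tested there, 1.61% were higher in Ad-MEM40, 5.27% were higher and 4.96% lower in Ad-mIFNB, and 10.8% were higher and 13.2% lower in Ad-COMBO. Cd40, the receptor of CD40 ligand, was above 1.5-fold in all 3, at 351 CPM in Ad-MEM40, 322 CPM in Ad-mIFNB and 415 CPM in Ad-COMBO, against 184 CPM in Ad-Null. Il10, a cytokine that restrains Il12b transcription, was 6.47 CPM in Ad-MEM40 against 2.36 CPM in Ad-Null, on 62 and 23 UMIs. Socs1, a feedback inhibitor of interferon signalling, was 85.2 CPM in Ad-mIFNB and 148 CPM in Ad-COMBO, against 52.8 CPM in Ad-Null.

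Of the 5 receptor chains, Il12rb2 and Il23r passed 1.5-fold in the mature DC of Ad-COMBO, Il6st had a log2 ratio of 0.06, and Il12rb1 and Il27ra had too few UMIs. Il12rb2 was 61.0 CPM in Ad-mIFNB and 88.6 CPM in Ad-COMBO, against 30.6 CPM in Ad-Null. Il23r, the specific chain of the IL-23 receptor, was 8.86 CPM (14 UMIs) in Ad-COMBO against 1.85 CPM (18 UMIs) in Ad-Null. Of the STAT genes, Stat4 was 607 CPM in Ad-COMBO against 346 CPM in Ad-Null, and Stat3, which IL-23 and IL-10 signals use, 478.5 CPM against 281 CPM. Irf1 was 505.7 CPM in Ad-COMBO against 273 CPM in Ad-Null. Il10ra, a chain of the IL-10 receptor, was 118 CPM in Ad-COMBO against 64.3 CPM in Ad-Null. The lower genes in Ad-COMBO were Ifngr1, a chain of the interferon gamma receptor, at 58.2 CPM against 94.1 CPM, and Tbx21, the transcription factor T-bet, at 0.633 CPM (1 UMI) against 5.54 CPM (54 UMIs).

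The genes whose levels varied most like each subunit were taken over 23 sums of a class in a library with at least 50 cells, among 11467 genes, by Pearson's r of log2 levels. These points share libraries and classes, so the values are a description. Il12a was most like Gpm6b (0.99), Atp1b1, Mzb1, Havcr1 and the pDC lectin gene Siglech (0.98), on 146 UMIs over these sums. Il12b was most like Mmp25 (0.94), Serpinb9, which encodes a granzyme B inhibitor, Cblb, Zfp296 and the chemokine gene Ccl22 (0.93), a mature DC marker of the gate. Il27 was most like Kpna3 (0.92), Il15ra, which encodes the chain that presents IL-15 (0.92), Pla1a, Epb41 and Insm1 (0.89). Ebi3 was most like Cd40 (0.94), Kcnk6, Atxn7l1, Ggta1 and Pik3r1 (0.94). Il23a was most like Ubd (0.84), Dscaml1, Ptgs2os, Cd70, which encodes a costimulatory ligand, and Exoc3l4 (0.68), on 765 UMIs over these sums.

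Among the subunits themselves over the same 23 sums, Ebi3 and Il27 had r = 0.86, Ebi3 and Il12b 0.83, and Il27 and Il12b 0.80. Il23a had values of 0.51 to 0.54 with those 3 genes. Il12a had values between -0.13 and -0.01 with the other 4, its partner chains Il12b (-0.11) and Ebi3 (-0.01) included. Of its 202 UMIs over all kept cells, 99 were in pDC.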

How the data were processed

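The deposited files hold UMI counts for each gene in each barcode, all whole numbers. Per the submitters' processing notes, the authors used Cell Ranger 3.0, Seurat 4.0 and mm10, and per the file headers Cell Ranger 6.0.0. Kept barcodes had at least 500 genes and at most 10% mt- UMIs, and totals over all barcodes, kept or not, were 186975859 UMIs in Ad-MEM40, 29213335 in Ad-mIFNB, 10584385 in Ad-COMBO and 166077463 in Ad-Null. The gate threshold was chosen after marker distributions were seen. Members, gene lists and tests were chosen with earlier results of these data known. UMIs were summed over cells and given as CPM with exact Poisson intervals, and shares with Clopper-Pearson intervals. Doublets were not removed except as an alternative, where Scrublet (scanpy 1.11.5) calls were left out: 1961 cells of Ad-MEM40, 3 of Ad-mIFNB, 3 of Ad-COMBO and 612 of Ad-Null. Its automatic threshold marked 0% of Ad-MEM40 and 15.7% of Ad-Null cells, so the expected share was used in those libraries. Thinning to 3000 UMIs left out 2069 Ad-MEM40, 204 Ad-mIFNB, 101 Ad-COMBO and 634 Ad-Null cells. Named genes were the 5 members, the listed pathway genes past 1.5-fold and the 5 genes most like each member.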

Additional observations from a re-analysis of the deposited data

Results flagged for a closer look

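Il12b differed in direction between classes in Ad-COMBO over Ad-mIFNB: the log2 ratio was -1.38 in macrophages (26 and 207 UMIs), 0.60 in cDC1 (98 and 108 UMIs) and 0.68 in the mature DC gate. Il12b also differed in direction in Ad-mIFNB over Ad-Null, with -1.03 in pDC (0 and 20 UMIs), 1.90 in monocytes (16 and 4 UMIs) and 1.12 in macrophages. The pDC value depends on the 5 CPM added, and the intervals overlapped, at 0 to 3.94 CPM in Ad-mIFNB and 3.17 to 8.03 CPM in Ad-Null. Doublet calls held 15 of the 20 Il12b UMIs of Ad-Null pDC. Without them 0 UMIs in Ad-mIFNB stood against 5 in Ad-Null, too few for a call. Without cluster 11, Il12b in macrophages was 1.73 CPM (3 UMIs) in Ad-COMBO, 6.42 CPM (25 UMIs) in Ad-mIFNB and 3.59 CPM in Ad-Null. Il23a was -1.71 in the mature DC gate and 0.64 in cDC1 (11 and 17 UMIs) in Ad-COMBO over Ad-MEM40. None of these differences between classes was tested.

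Barcodes that failed the filter, which no comparison uses, held subunit UMIs, some of them at levels above Ad-Null. Il12b was 60.3 CPM in Ad-MEM40, 59.5 CPM in Ad-mIFNB and 222 CPM in Ad-COMBO, against 31.8 CPM in Ad-Null. Ebi3 was 43.1 CPM in Ad-COMBO against 22.1 CPM in Ad-Null, and Il27 was 15.6 CPM (13 UMIs) in Ad-COMBO against 1.91 CPM (10 UMIs) in Ad-Null. The intervals of these values lay above those of Ad-Null, and all other intervals overlapped with it. Among the others, some values were higher than in Ad-Null. Il12a was 4.78 CPM (4 UMIs) in Ad-COMBO against 1.14 CPM, and Il27 4.10 CPM in Ad-MEM40 against 1.91 CPM. Ebi3 was 25.3 CPM in Ad-mIFNB against 22.1 CPM, and Il23a 11.5 CPM in Ad-MEM40 against 10.7 CPM. Lower ones included Il23a, 2.98 CPM in Ad-mIFNB against 10.7 CPM, and Il27, 1.49 CPM in Ad-mIFNB against 1.91 CPM. Ebi3 was 18.2 CPM in Ad-MEM40 against 22.1 CPM, and Il12a 0.586 CPM in Ad-MEM40 against 1.14 CPM.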

How the results depend on the processing

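No paired analysis was possible because each treatment has 1 library. Of 130 alternatives to the 13 ratios past 1.5-fold over all kept cells, 120 stayed past it, and of 165 alternatives to the 15 in the mature DC gate, 160 did. There were 496 alternatives to 65 single log2 ratios and shares, called or not. Of these, 357 stayed within the counting interval of the reported value and 139 moved beyond it. No ratio past 1.5-fold changed sign. Sign changes of smaller ratios were not counted, and shares have no sign. For Ad-MEM40 over Ad-Null over all kept cells, 1 subunit was higher, against 0 with Scrublet calls left out, 0 after thinning, 0 without mature DC-gated cells, 2 with each cell weighted equally and 3 with 1 CPM added. With 1 CPM added, 5 were higher in Ad-COMBO than in Ad-Null and 5 than in Ad-mIFNB. Without mature DC-gated cells, 0 were higher in Ad-COMBO than in Ad-mIFNB and 1 than in Ad-MEM40. In the mature DC gate, 1 was higher in Ad-COMBO than in Ad-MEM40 without the 3 cells with most UMIs. Thinning gave 5.45% of Il12a-positive cells with Il12b, 56.9% of Il27-positive mature DC with Ebi3 and 16.4% of Il12a-positive cells with Ebi3. Leaving out mature DC-gated cells, or barcodes kept in more than 1 library, was chosen after seeing the data. So was leaving out the cells with most UMIs within the mature DC gate. Depth limits Il12a and Il23a, which had 202 and 1124 UMIs in all, and the causes of these shifts were not tested.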
